A study of Homo sapiens with 15 samples.

Results

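The genes described here encode the nuclear pore complex and the soluble machinery that carries cargo through it, and 58 of them were chosen by symbol from the 61552 genes in the counts table. They comprised 30 nucleoporins, 6 importin alpha genes, 11 genes of the importin beta family, 6 exportins and 5 genes of the RAN cycle. Bulk RNA was sequenced in 15 libraries of MDA-MB-468, an established human triple-negative breast cancer cell line, with 3 libraries in each of 5 groups. In the drug experiment, cells were serum starved for 12 h and given 10 ng/mL EGF for 12 h, either without a drug (EGF), with 10 μM cSNX1.3 (cSNX1.3), a peptide made to keep EGFR from binding Sorting Nexin 1, or with 15 μM erlotinib (erlotinib), which inhibits the EGFR tyrosine kinase. In the line experiment, endogenous EGFR was knocked down in both groups by an IPTG-inducible lentiviral shRNA, and EGFR-GFP was introduced either as wildtype (shEGFR-WT) or with a mutated nuclear localization sequence (shEGFR-NLS), followed by EGF treatment. Each of these groups was 1 derived line, so the mutation and other differences between the lines cannot be told apart, and the EGF dose of the line experiment is not given in the sources used here. Nothing states that replicates came from separate cultures, so p-values measure the spread between these libraries, which may be technical.

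The nuclear pore complex is a ring-shaped channel through the nuclear envelope. The Y-complex and the inner ring form its scaffold, transmembrane nucleoporins anchor it, and nucleoporins rich in phenylalanine and glycine repeats fill the channel and form its barrier. Importins bind a nuclear localization sequence in the cytoplasm and release it in the nucleus on binding RAN-GTP, whereas exportins need RAN-GTP to bind their cargo. Importin alpha is the adaptor that reads the classical nuclear localization sequence and importin beta (KPNB1) carries the pair through the pore. EGFR reaches the nucleus by retrograde membrane transport that uses KPNB1 and the Sec61 translocon, so these genes stand between the receptor and the transcription it may drive in the nucleus.

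Library totals were 22915676 to 35900649 counts. Replicates differed by more than sampling noise, the chi-square of a pair divided by its degrees of freedom being 2.60 to 22.3. EGF replicate 2, cSNX1.3 replicate 1 and shEGFR-WT replicate 2 stood apart from the other libraries of their groups. The erlotinib pairs were at 22.3, 14.2 and 11.3, and no erlotinib library is among the 3 that stood apart. Where leaving out these 3 libraries ends a call or changes a ranking or direction given here, the value without them stands beside the result. The 9 listed epithelial genes were EGFR, KRT5, KRT6B, KRT14, KRT16, KRT17, KRT18, EPCAM and CDH1. They had a summed level of 6164 to 18884 CPM (counts scaled by library total and TMM factor). Sums of the marker lists and the EGFR levels given here were scaled over all 15 libraries. Other CPM values, those of ESR1 and CD14 among them, were scaled within each experiment. Of the hormone receptors, PGR was under 1 CPM in all groups, and ESR1 had group means of 4.17 to 7.29 CPM and was higher in shEGFR-NLS than in shEGFR-WT (log2 fold change 0.75, adjusted p = 0.000363). Of 7 leukocyte genes 5 to 6 were under 1 CPM, PTPRC, CD3D and CD3E among them, whereas CD14 had group means of 10.8 to 40.1 CPM. EGFR itself was at 4318 to 4963 CPM in the EGF libraries, 1147 to 1450 CPM in shEGFR-WT and 1688 to 1746 CPM in shEGFR-NLS, and it was higher in shEGFR-NLS than in shEGFR-WT (log2 fold change 0.37 ± 0.09 (SE), adjusted p = 0.0037). The counts do not separate introduced from endogenous EGFR.

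RefSeq promoter windows of 250 bases before the start site were found for 51 of the 58 members, and 6 short motifs were searched in them on both strands. The ETS core CCGGAAG was held by 29.4% of members, by 15.4% of the 11421 genes tested in the drug libraries that have a window, and by 8.82% of all 27305 genes with a window. The corresponding shares were 15.7%, 6.24% and 3.96% for the NRF1 core CATGCGC, 13.7%, 8.77% and 6.49% for the E-box CACGTG, 39.2%, 34.7% and 33.0% for CCAAT, and 17.6%, 8.41% and 13.6% for the cell cycle element TTTGAA. Neither TTTCCCGC nor TTTGGCGC, the E2F forms searched, was present in any member window, against 3.09% of the tested genes. A match of these letters is a description of the window and not a measured binding site. Windows of 4 members are shown because they hold these motifs and because each gene was called in 1 or more comparisons below. They are given in build GRCh38.p14, 5′ to 3′ on the strand of the gene and trimmed to bases outside the annotated gene, with the searched motifs, or their reverse complements, in capitals. The window of RAN (chr12:130871816-130872036, plus strand) has 1 E-box, that of NUP188 (chr9:128947449-128947698, plus strand) has 2 E-boxes, that of POM121 (chr7:72879107-72879348, plus strand) has an ETS core and an NRF1 core, and that of TNPO2 (chr19:12724012-12724182, minus strand) has a CCAAT box and an NRF1 core, with an E-box in the trimmed part that is not shown.
RAN: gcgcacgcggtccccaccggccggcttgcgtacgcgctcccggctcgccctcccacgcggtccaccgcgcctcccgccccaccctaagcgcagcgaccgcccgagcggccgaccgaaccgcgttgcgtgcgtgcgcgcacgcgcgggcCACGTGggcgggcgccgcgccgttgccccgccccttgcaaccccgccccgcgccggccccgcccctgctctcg
NUP188: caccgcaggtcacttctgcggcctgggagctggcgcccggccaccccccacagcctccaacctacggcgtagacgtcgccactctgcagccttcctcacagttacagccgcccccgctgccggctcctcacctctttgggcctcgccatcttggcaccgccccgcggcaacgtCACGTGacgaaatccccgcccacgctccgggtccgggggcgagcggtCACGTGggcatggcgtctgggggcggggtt
POM121: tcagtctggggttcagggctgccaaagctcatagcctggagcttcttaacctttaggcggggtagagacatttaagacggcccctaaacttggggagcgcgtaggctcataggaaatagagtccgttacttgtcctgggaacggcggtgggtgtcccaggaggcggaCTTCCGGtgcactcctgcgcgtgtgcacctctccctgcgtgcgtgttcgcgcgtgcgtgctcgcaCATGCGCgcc
TNPO2: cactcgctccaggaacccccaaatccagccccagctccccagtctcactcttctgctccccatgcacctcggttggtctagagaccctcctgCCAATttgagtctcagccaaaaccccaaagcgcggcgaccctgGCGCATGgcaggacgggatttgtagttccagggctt
Among the members that were lower with erlotinib, 25.0% held the ETS core, against 34.6% of those not called with erlotinib. Among the members that were higher in shEGFR-NLS, 33.3% held the NRF1 core and 22.2% the ETS core. These shares rest on few windows, and no difference between them was tested.

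Levels between genes were compared as CPM per kb of the canonical transcript. RAN, RANBP1 and KPNA2 led the order in the EGF group. RAN, the GTPase that gives transport its direction, was at 217 CPM per kb, its cofactor RANBP1 at 187 and the importin alpha KPNA2 at 126, and the median of the members was 17.9. Of the 58 members, 25 were above 20 CPM per kb and 3 were below 5. The lowest member that could be tested was KPNA5, an importin alpha, at 1.05 CPM per kb. IPO4, an importin beta family gene, had only 1 to 11 counts per library and was not tested. In IPO4, 69.5% of the exon bases are shared with other annotated genes, and the part of this in its low counts was not tested. Exon bases shared with other genes were also over 20% in NUP88 (35.5%), IPO11 (21.5%) and NUP62 (20.1%), and strand was not used in counting. RAN has 9 annotated pseudogenes, NUTF2 7 and KPNA2 3, POM121 has the near-identical copy POM121C and RANBP2 has the RGPD copies, so the values of these genes are uncertain.

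**Figure D1:**
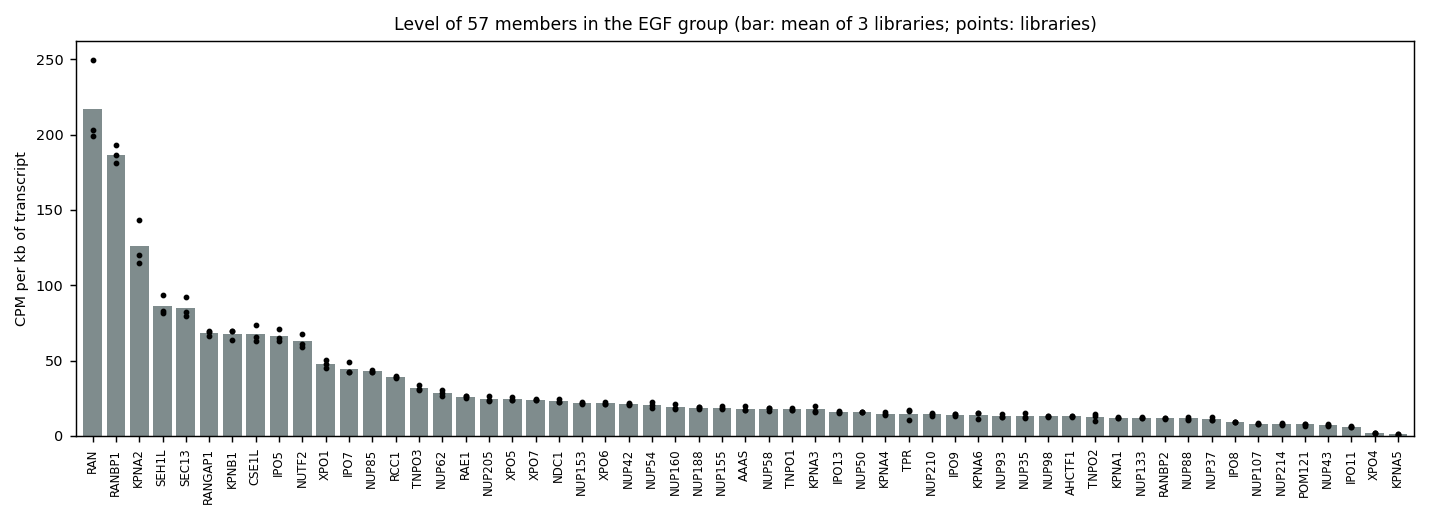
Level of the 57 tested members in the EGF group as CPM per kb of canonical transcript (linear axis), with bars for the mean and points for the 3 libraries. RAN (217), RANBP1 (187) and KPNA2 (126) stand above the rest, 25 of the members are above 20, and KPNA5 is lowest at 1.05.

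The first comparison asked what inhibition of the EGFR kinase does to this machinery in cells that receive EGF. The genes were lower with erlotinib far more often than higher. Of the 57 members tested, 22 (38.6%) were lower than in EGF, against 21.2% of all 15738 genes tested, and 4 (7.02%) were higher, against 22.8% of all genes. All 5 genes of the RAN cycle fell, as did 3 of 6 exportins and 3 of 5 inner ring nucleoporins, whereas none of the 3 nuclear basket genes was called. The median log2 fold change of the members was -0.16, that of all genes was 0.01, and 43 of 57 members had a negative value. The summed level of the 58 members was 6959, 7239 and 6967 CPM in the EGF libraries and 5846, 6372 and 5997 CPM in the erlotinib libraries, so that the groups did not overlap. CPM are shares of each library, and in bulk RNA fewer cells of a type and less RNA per cell cannot be told apart.

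**Figure D2:**
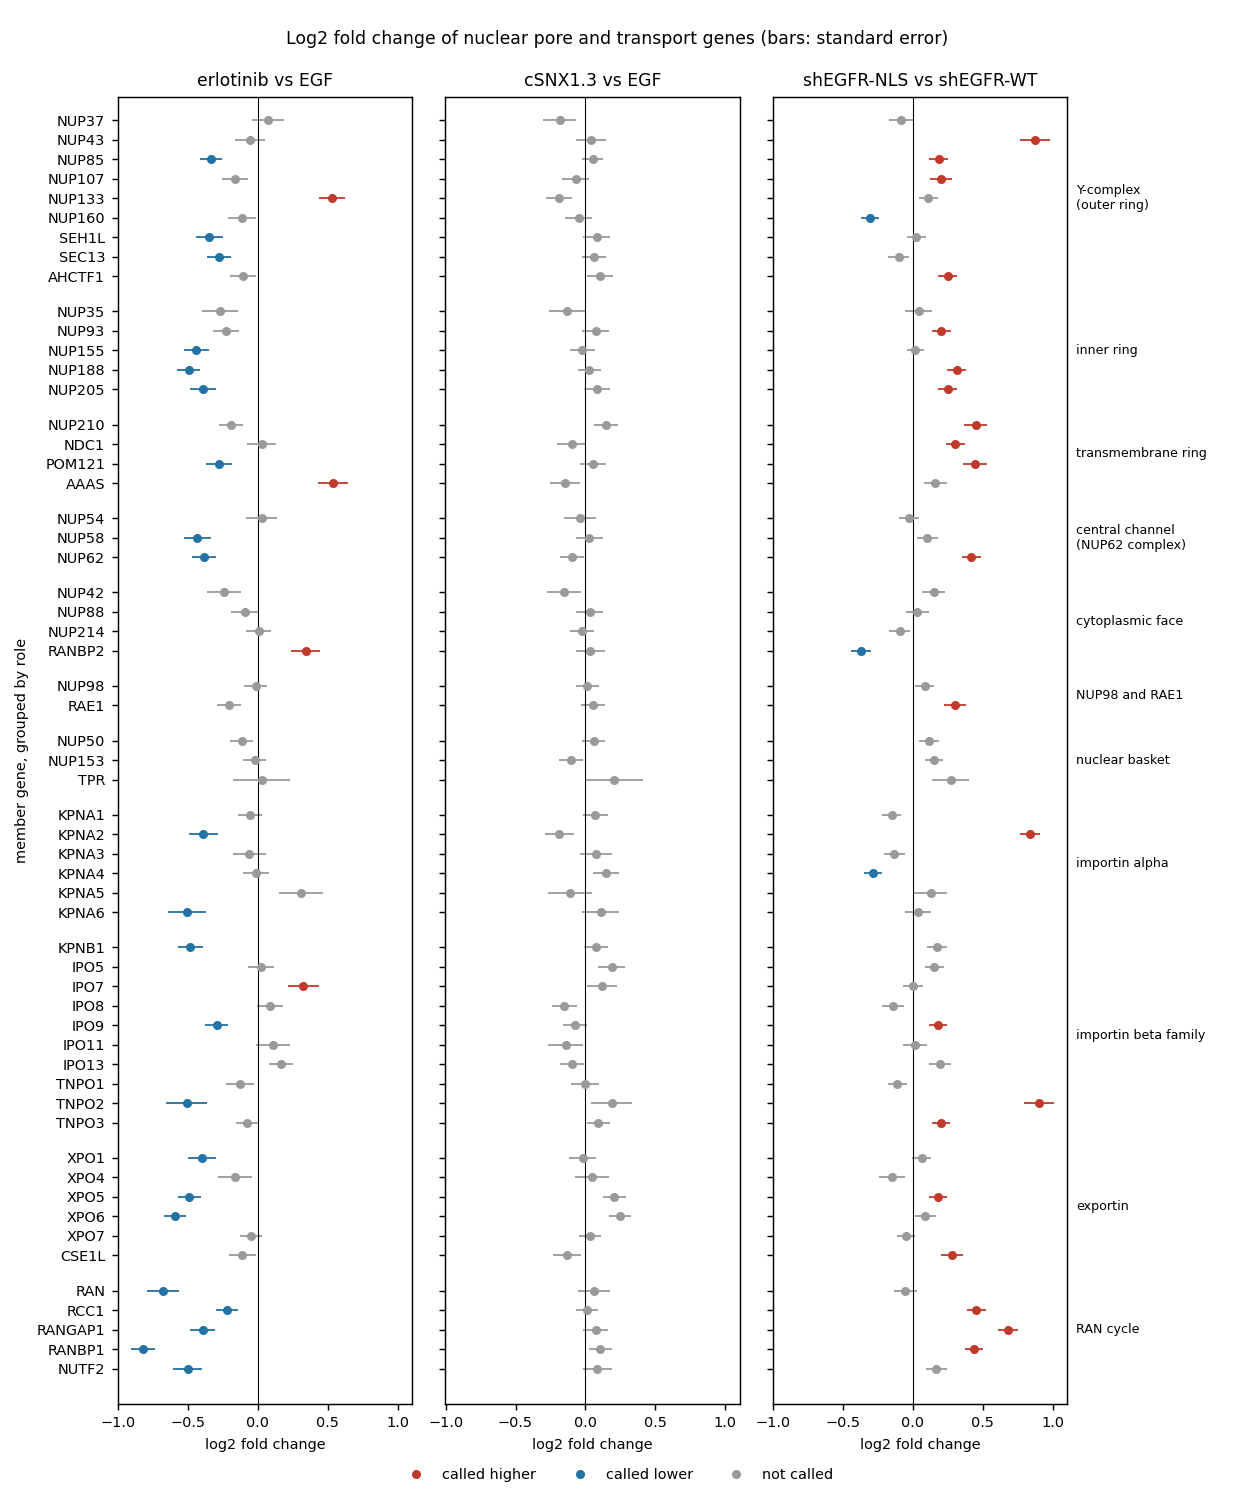
Log2 fold change (horizontal axis) of the 57 tested members, grouped by role, in erlotinib vs EGF, cSNX1.3 vs EGF and shEGFR-NLS vs shEGFR-WT, with points for the estimate and bars for its standard error. Blue points (lower, adjusted p under 0.05) prevail in the left panel (22 of 57), no member is called in the middle panel, and red points (higher) prevail in the right panel (21 of 57).

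All 5 genes of the RAN cycle were called lower, and RANBP1 had the largest fall of the members. RANBP1, which helps release RAN-GTP from transport receptors (chr22:20115938-20127355 in GRCh38), was at 228, 236 and 221 CPM in EGF and 136, 122 and 129 CPM in erlotinib. Its log2 fold change was -0.82 ± 0.08 (adjusted p = 1.37e-06), and every erlotinib library was below every EGF library. RAN (chr12:130872037-130877678) was at 502, 618 and 492 CPM in EGF and 337, 327 and 344 CPM in erlotinib, a log2 fold change of -0.68 ± 0.11 (adjusted p = 0.000188). EGF replicate 2 was the high library, and without the 3 libraries that stood apart the value was -0.56 (adjusted p = 1.86e-05). NUTF2, which carries RAN-GDP back into the nucleus, was at 130, 144 and 126 CPM in EGF and 107, 90.8 and 83.7 CPM in erlotinib. The groups of NUTF2 did not overlap (-0.50 ± 0.10, adjusted p = 0.00104). RANGAP1, the GTPase-activating protein that turns RAN to its GDP form outside the nucleus, fell from 261 ± 6.62 to 199 ± 19.3 CPM (SD, n = 3), a log2 fold change of -0.39 ± 0.09 (adjusted p = 0.00224). RCC1, the chromatin-bound exchange factor that loads RAN with GTP, fell the least (-0.22 ± 0.08, adjusted p = 0.0307), from 99.5 ± 1.64 to 85.3 ± 3.98 CPM (SD, n = 3). The call for RCC1 was lost in 9 alternatives, including 5 of the 6 that leave out 1 library, with an adjusted p of up to 0.0789.

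Exportins and importins were called in part. XPO6, the exportin of actin and profilin, was at 97.3, 101 and 95.1 CPM in EGF and 68.8, 61.5 and 64.4 CPM in erlotinib (-0.59 ± 0.08, adjusted p = 2.63e-05). XPO5, which exports microRNA precursors, was at 127, 136 and 126 CPM in EGF and 86.2, 96.6 and 94.0 CPM in erlotinib (-0.49 ± 0.08, adjusted p = 0.000177). XPO1, the exportin of leucine-rich export signals, was at 239, 225 and 251 CPM in EGF and 156, 198 and 188 CPM in erlotinib (-0.40 ± 0.10, adjusted p = 0.00335). The groups did not overlap in any of these exportins, and the nearest libraries were those of XPO1. XPO4, XPO7 and CSE1L, which returns importin alpha to the cytoplasm, had values from -0.17 to -0.05 and were not called.

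KPNB1, the importin beta of the classical pathway (chr17:47649476-47685505), was at 420, 385 and 423 CPM in EGF and 276, 307 and 294 CPM in erlotinib. Its log2 fold change was -0.49 ± 0.09 (adjusted p = 0.000377), and the groups were well apart. TNPO2, a transportin that imports RNA-binding proteins, was at 67.6, 49.6 and 72.2 CPM in EGF and 44.5, 42.5 and 45.9 CPM in erlotinib (-0.51 ± 0.14, adjusted p = 0.00974). EGF replicate 2 was the library nearest to erlotinib, and without the 3 libraries that stood apart the value was -0.66 (adjusted p = 7.36e-06). IPO9 fell as well (-0.30 ± 0.08, adjusted p = 0.00926). IPO7, an importin of ribosomal proteins and histones, was the only importin beta family gene that rose, at 260, 303 and 262 CPM in EGF and 317, 395 and 322 CPM in erlotinib (0.32 ± 0.11, adjusted p = 0.0245). That call was lost without EGF replicate 1 or 3 or erlotinib replicate 2, with an adjusted p of up to 0.133. The other 6 tested genes of the family were not called.

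Of the importin alpha genes, KPNA6 and KPNA2 fell and the other 4 were not called. KPNA6 was at 113, 80.1 and 111 CPM in EGF and 64.5, 79.4 and 70.3 CPM in erlotinib (-0.51 ± 0.13, adjusted p = 0.00622). EGF replicate 2 lay just above erlotinib replicate 2, and without the 3 libraries that stood apart the value was -0.65 (adjusted p = 1.95e-05). KPNA2 was at 238, 283 and 227 CPM in EGF and 184, 193 and 194 CPM in erlotinib (-0.39 ± 0.10, adjusted p = 0.00621). KPNA5 had a value of 0.31 ± 0.15 (adjusted p = 0.118) and KPNA4 of -0.01 ± 0.09 (adjusted p = 0.92), the latter 0.04 without the 3 libraries that stood apart.

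Of the nucleoporins 9 fell, 3 in the inner ring, 2 in the central channel, 3 in the Y-complex and 1 in the transmembrane ring. NUP188, an inner ring scaffold protein, was at 102, 110 and 108 CPM in EGF and 73.9, 77.6 and 75.7 CPM in erlotinib (-0.49 ± 0.08, adjusted p = 0.00017). NUP155 (-0.44 ± 0.09, adjusted p = 0.000869) and NUP205 (-0.39 ± 0.09, adjusted p = 0.00291), of the same ring, also fell, and NUP93 and NUP35 were not called. In the central channel, NUP58 (-0.44 ± 0.10, adjusted p = 0.0018) and NUP62 (-0.39 ± 0.09, adjusted p = 0.00183) fell, whereas NUP54 had a value of 0.03 ± 0.11 (adjusted p = 0.876). The Y-complex was split, with SEH1L (-0.35), NUP85 (-0.34) and SEC13 (-0.28) lower, NUP133 higher and the other 5 genes not called. The call for SEC13 was lost without EGF replicate 2 (adjusted p = 0.0689).

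NUP133, a stem component of the Y-complex, was at 62.2, 66.3 and 60.6 CPM in EGF and 84.7, 95.8 and 92.7 CPM in erlotinib (0.53 ± 0.09, adjusted p = 0.00027). AAAS, which encodes the nucleoporin aladin and was grouped with the transmembrane ring, was at 30.6, 36.0 and 31.4 CPM in EGF and 50.4, 48.1 and 43.5 CPM in erlotinib (0.54 ± 0.11, adjusted p = 0.000837). Both rose in every library, against the direction of most members. RANBP2, the large cytoplasmic nucleoporin that anchors RANGAP1, was at 138, 130 and 140 CPM in EGF and 149, 202 and 167 CPM in erlotinib (0.34 ± 0.10, adjusted p = 0.0133). Without erlotinib replicate 2 the calls for RANBP2 (adjusted p = 0.0723) and IPO7 were lost, and 2 members, not 4, were called higher. POM121, a transmembrane anchor, was lower (-0.28 ± 0.09, adjusted p = 0.0227), a call lost without EGF replicate 1 or 3 or erlotinib replicate 3 (adjusted p of up to 0.0977).

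**Figure D3:**
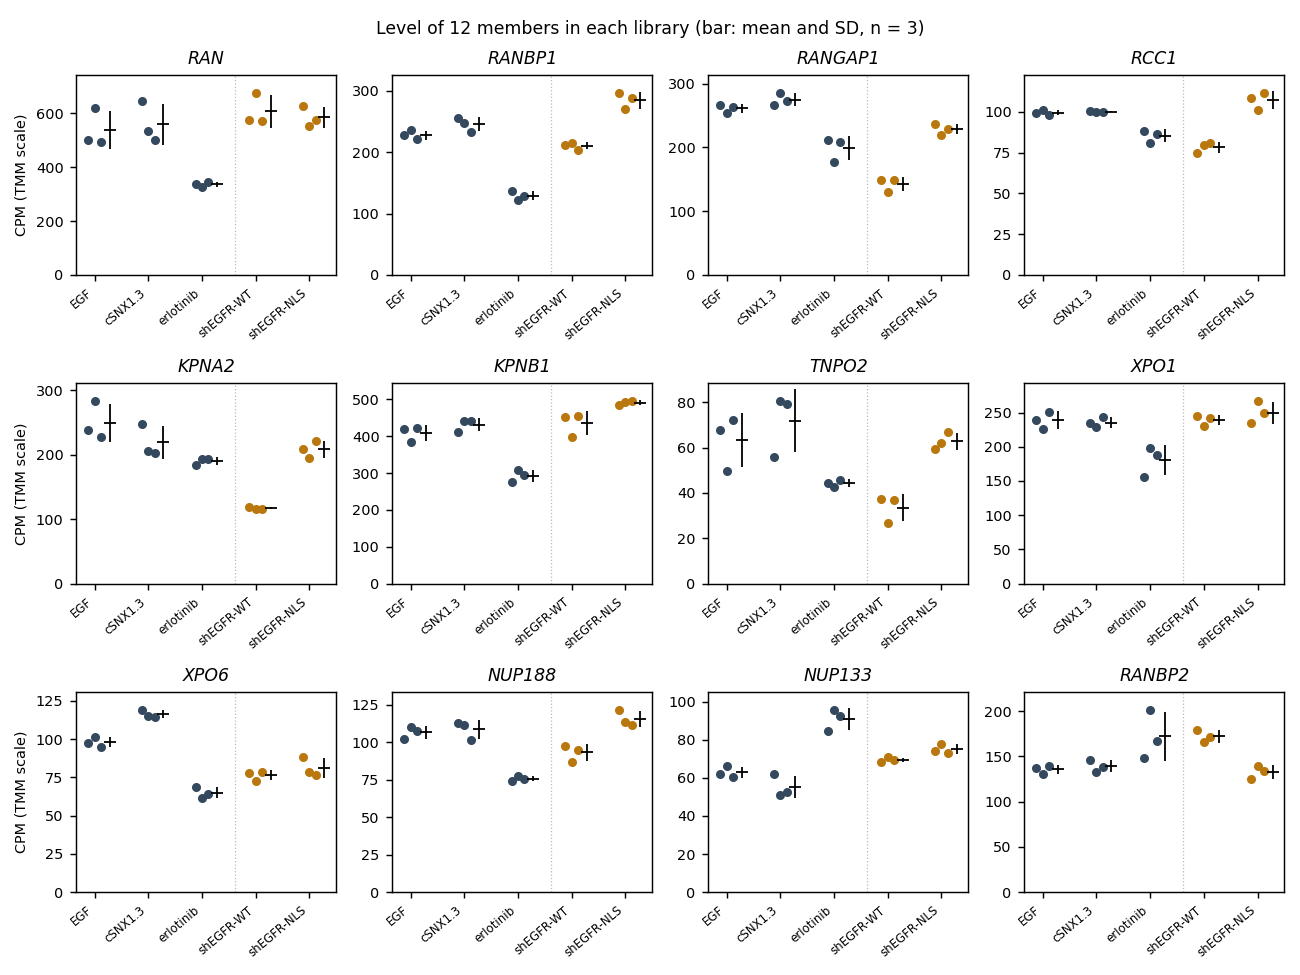
Level (CPM on the TMM scale, linear axis from 0) of 12 members in each library of the 5 groups, with the drug experiment left and the line experiment right of the dotted line, which were scaled separately. Points are libraries, and the bar beside them is the mean and SD of 3 libraries. RAN falls from a mean of 537 CPM in EGF to 336 CPM in erlotinib and TNPO2 is at 33.5 CPM in shEGFR-WT and 62.7 CPM in shEGFR-NLS.

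Other values moved with the fall of these genes. All 6 listed genes of growth and ERK output were lower with erlotinib, among them DUSP6 (-4.89), CCND1 (-2.42) and MYC (-0.83). Their summed level was 395 to 432 CPM in EGF and 116 to 125 CPM in erlotinib. Of the 12 listed proliferation genes 4 were lower and 1 was higher, and their sum was 2742 to 2902 CPM in EGF and 2445 to 2465 CPM in erlotinib. The 7 leukocyte genes summed to 15.1 to 20.4 CPM in EGF and 41.4 to 44.9 CPM in erlotinib, and both that passed the filter, CD14 (1.33, adjusted p = 1.02e-06) and NCAM1 (1.36, adjusted p = 0.000457), were higher. Of the 9 epithelial genes 5 were lower and 2, KRT16 (0.50) and CDH1 (0.47), were higher, against 21.2% and 22.8% of all genes. EGFR was not called (0.0011, adjusted p = 0.995). The 9 genes summed to 12760 to 15145 CPM in EGF and 8364 to 9022 CPM in erlotinib. The part of these lists in the result was not tested.

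The second comparison asked what cSNX1.3 does to the same genes, against the EGF libraries that were also the controls of erlotinib. No member was called in cSNX1.3 vs EGF, where 3.38% of all genes were called higher and 2.69% lower. The fitted log2 fold changes lay between -0.19 and 0.25, with a median of 0.04 and a median standard error of 0.09, and the summed level was 7580, 7130 and 7108 CPM in cSNX1.3. By edgeR 2 members had an unadjusted p under 0.05 and the lowest adjusted p was 0.0876. DESeq2 called 1 member, and 3 had an unadjusted p under 0.05. The gene with the lowest p was XPO6, at 119, 115 and 114 CPM in cSNX1.3 against 97.3, 101 and 95.1 CPM in EGF (0.25 ± 0.08, adjusted p = 0.0876), and the groups did not overlap. XPO5 was next, at 154, 146 and 149 CPM in cSNX1.3 against 127, 136 and 126 CPM in EGF (0.21 ± 0.08, adjusted p = 0.166). Without the 3 libraries that stood apart, NUP133 (-0.24, adjusted p = 0.188) came before XPO5 (0.22, adjusted p = 0.191). KPNB1 was at 411, 442 and 443 CPM in cSNX1.3 (0.08 ± 0.09, adjusted p = 0.706), and RAN was at 646, 536 and 500 CPM (0.06 ± 0.11, adjusted p = 0.833). The groups overlapped in both genes. The RAN cycle genes had values from 0.01 to 0.11 and the importin alpha genes from -0.19 to 0.15. TPR, a nuclear basket protein, had the widest error (0.20 ± 0.20, adjusted p = 0.654). It was at 160, 98.8 and 166 CPM in EGF and 125, 185 and 179 CPM in cSNX1.3, so that the low libraries were 2 of the 3 that stood apart. Without those libraries no member was called either.

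Set directly against each other, the drugs differed in 30 of the 57 members. The erlotinib libraries are those of the first comparison, so this is not an independent measurement of them. In erlotinib vs cSNX1.3, 24 members (42.1%) were lower, against 27.6% of all genes, and 6 (10.5%) were higher, against 28.5% of all genes. RANBP1 had the largest difference (-0.93 ± 0.08, adjusted p = 1.74e-07), also without the 3 libraries that stood apart (-0.90). XPO6 was lower by a similar amount (-0.84 ± 0.08, adjusted p = 3.44e-07), with a value of -0.82 without those libraries. RAN was lower too (-0.74 ± 0.11, adjusted p = 4.84e-05), with cSNX1.3 replicate 1 the highest library, and without those libraries its value was -0.62 (adjusted p = 3.29e-06), smaller than those of TNPO2 (-0.85), NUP133 (0.81) and AAAS (0.77). The call for RAE1, an mRNA export factor of the pore, was lost without them (adjusted p = 0.0652). KPNB1 was also lower with erlotinib than with cSNX1.3 (-0.56 ± 0.09, adjusted p = 5.96e-05), and NUP133 was higher (0.72 ± 0.09, adjusted p = 8.65e-06). The doses and the kind of agent differ, so these are differences between the treatments as given. The number of members called higher was 2 without cSNX1.3 replicate 2 and 3 without erlotinib replicate 2.

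The third comparison asked what the loss of the nuclear localization sequence of EGFR does to these genes. They were higher in shEGFR-NLS far more often than lower. Of the 57 members 21 (36.8%) were higher than in shEGFR-WT, against 20.4% of all 15805 genes tested, and 3 (5.26%) were lower, against 21.0% of all genes. The median log2 fold change of the members was 0.15, that of all genes 0.01, and the summed level was 6902, 6896 and 6818 CPM in shEGFR-WT and 7579, 7641 and 7574 CPM in shEGFR-NLS. The calls were spread over the pore and the carriers, with 3 of 4 transmembrane nucleoporins, 3 of 5 inner ring genes, 4 of 9 Y-complex genes and 3 of 5 RAN cycle genes higher. None of the nuclear basket genes was called.

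TNPO2, KPNA2 and NUP43 rose the most. TNPO2 was at 37.4, 26.5 and 36.7 CPM in shEGFR-WT and 59.2, 62.0 and 66.9 CPM in shEGFR-NLS (0.90 ± 0.11, adjusted p = 5.36e-06). shEGFR-WT replicate 2 was the low library, and without the libraries that stood apart the value was 0.76 (adjusted p = 4.13e-07), below those of KPNA2 (0.83) and NUP43 (0.77). KPNA2, an importin alpha that is abundant in dividing cells, was at 119, 116 and 115 CPM in shEGFR-WT and 208, 195 and 222 CPM in shEGFR-NLS. Its groups were far apart (0.84 ± 0.07, adjusted p = 7.73e-08). No other importin alpha rose, and KPNA4 fell, from 146, 145 and 138 to 116, 120 and 116 CPM (-0.29 ± 0.06, adjusted p = 0.00199). KPNB1 was at 454, 398 and 456 CPM in shEGFR-WT and 484, 494 and 495 CPM in shEGFR-NLS, and its difference did not pass the test (0.17 ± 0.07, adjusted p = 0.0698). TNPO3 and IPO9 were higher by 0.20 and 0.18. The TNPO3 call was lost in 5 alternatives (adjusted p of up to 0.114) and the IPO9 call in 9 (up to 0.119). Both sets include fits that left out a library.

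In the RAN cycle, RANGAP1 was at 149, 131 and 149 CPM in shEGFR-WT and 236, 220 and 229 CPM in shEGFR-NLS (0.68 ± 0.07, adjusted p = 1.39e-06). RCC1 was at 74.6, 79.5 and 80.7 CPM in shEGFR-WT and 109, 101 and 112 CPM in shEGFR-NLS (0.45 ± 0.07, adjusted p = 7.08e-05). RANBP1 was at 212, 216 and 204 CPM in shEGFR-WT and 297, 270 and 288 CPM in shEGFR-NLS (0.44 ± 0.07, adjusted p = 7.79e-05). The groups did not overlap in these 3 regulators. RAN itself was at 574, 677 and 571 CPM in shEGFR-WT and 628, 552 and 575 CPM in shEGFR-NLS, and the groups overlapped (-0.05 ± 0.08, adjusted p = 0.633). Without the libraries that stood apart the sign turned (0.03, adjusted p = 0.74), so no direction is given for RAN here. Among the exportins XPO5 (0.18) and CSE1L (0.28) were higher, and XPO1 had a value of 0.06 ± 0.07 (adjusted p = 0.509). The XPO5 call was lost in 9 alternatives and the CSE1L call in 3, each including 2 or more that left out a library.

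Of the nucleoporins NUP43, a Y-complex gene, rose the most, also without the libraries that stood apart (0.77, adjusted p = 6.24e-06), from 26.9, 19.8 and 23.1 CPM in shEGFR-WT to 37.9, 45.4 and 44.6 CPM in shEGFR-NLS (0.87 ± 0.11, adjusted p = 5.72e-06). NUP210, a transmembrane nucleoporin, was at 124, 102 and 125 CPM in shEGFR-WT and 167, 152 and 159 CPM in shEGFR-NLS (0.45 ± 0.08, adjusted p = 0.000321), with shEGFR-WT replicate 2 the low library and a value of 0.36 (adjusted p = 0.000166) without those libraries. POM121 was at 29.0, 23.8 and 27.4 CPM in shEGFR-WT and 36.4 ± 1.91 CPM (SD, n = 3) in shEGFR-NLS (log2 fold change 0.45 ± 0.09, adjusted p = 0.00066). Each of these was higher in every shEGFR-NLS library. NUP62, the core of the central channel, was at 85.9, 81.6 and 89.9 CPM in shEGFR-WT and 117, 114 and 113 CPM in shEGFR-NLS (0.42 ± 0.07, adjusted p = 0.000112). RANBP2 fell, from 180, 166 and 171 CPM to 125, 140 and 134 CPM (-0.37 ± 0.07, adjusted p = 0.000425), and so did NUP160, from 141, 141 and 136 CPM to 112, 113 and 113 CPM (-0.31 ± 0.06, adjusted p = 0.00109). Both groups of libraries were apart in these genes. Smaller rises in the Y-complex and inner ring (NUP85, NUP107, NUP93 and NUP205, from 0.18 to 0.25) did not hold in every fit that left out a library. Over all alternatives their calls were lost in 8, 8, 7 and 1, in that order.

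Marker genes moved with these rises. Of the 12 listed proliferation genes 7 (58.3%) were higher and 1 (8.33%) was lower in shEGFR-NLS, against 20.4% and 21.0% of all genes. MKI67 (1.60) and TOP2A (1.33) rose most, MCM6 fell (-0.30), and MCM2, MCM3, MCM4 and MCM5 were not called. The summed level of the 12 genes was 3356 to 3426 CPM in shEGFR-WT and 4298 to 4442 CPM in shEGFR-NLS. Of the 9 epithelial genes 1 (EGFR, knocked down and introduced in these lines) was higher and 5 were lower. Their sums, which include EGFR, were 8021 to 8838 CPM in shEGFR-WT and 6164 to 7221 CPM in shEGFR-NLS. Both tested leukocyte genes, CD14 and NCAM1, were higher, and the 7 listed genes summed to 26.3 to 37.6 CPM in shEGFR-WT and 39.0 to 43.5 CPM in shEGFR-NLS. Of the 6 genes of growth and ERK output 3 were higher and 1, CCND1 (-0.92), was lower. The part of these lists in the result was not tested. Without the libraries that stood apart 24 members were called higher and 4 lower.

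**Figure D4:**
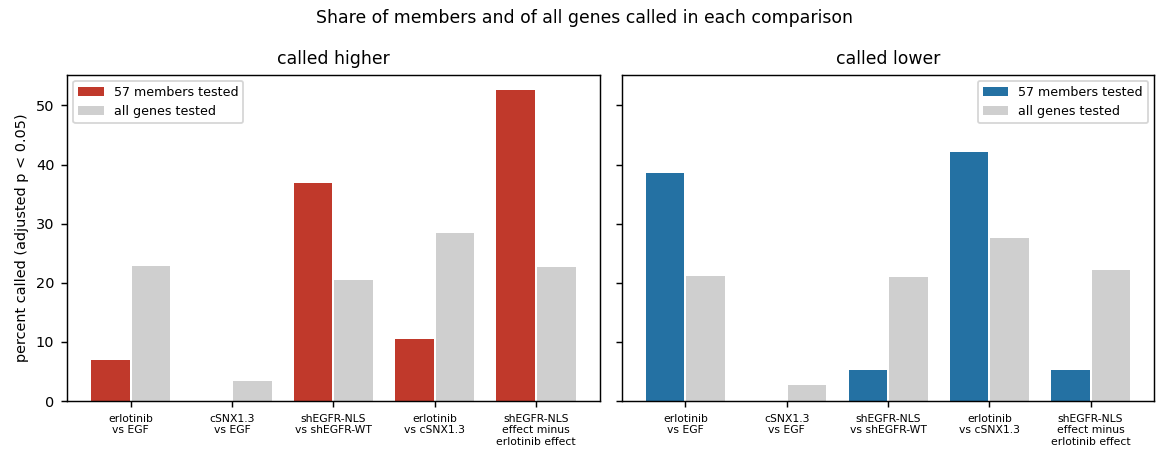
Percent of the 57 tested members (coloured bars) and of all tested genes (grey bars) called higher (left) and lower (right) at an adjusted p under 0.05 in the 5 comparisons, on a linear axis from 0. Members are called lower more often than all genes with erlotinib (38.6% against 21.2%) and higher more often in shEGFR-NLS (36.8% against 20.4%), and none is called with cSNX1.3.

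The effects of erlotinib and of the NLS mutation rest on separate libraries with separate controls, and their difference was tested as an interaction over all 15 libraries. The NLS effect exceeded the erlotinib effect in 30 members (52.6%), against 22.6% of all 16524 genes tested, and was below it in 3 (5.26%), against 22.1%. The 3 were NUP133 (-0.41), AAAS (-0.37) and RANBP2 (-0.70), the call for AAAS being lost in 7 of the 12 fits that left out a library, and 5 members were called lower without EGF replicate 2. The call for TNPO3 was lost without the 3 libraries that stood apart (adjusted p = 0.0731). The largest differences were those of TNPO2 (1.42 ± 0.21, adjusted p = 2.01e-05), RANBP1 (1.27 ± 0.11, adjusted p = 8.14e-09), KPNA2 (1.24 ± 0.13, adjusted p = 2.69e-07) and RANGAP1 (1.08 ± 0.12, adjusted p = 2.37e-07). All 5 genes of the RAN cycle passed this test, RAN itself with no call in shEGFR-NLS (0.63 ± 0.16, adjusted p = 0.00224). KPNB1 (0.67 ± 0.11, adjusted p = 6.07e-05) and XPO1 (0.47 ± 0.12, adjusted p = 0.00308) passed it as well.

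Read by gene, 12 members (21.1%) were lower with erlotinib and higher in shEGFR-NLS, against 6.22% of the 15216 genes tested in both. They were RANBP1, RANGAP1 and RCC1 of the RAN cycle, KPNA2, TNPO2 and IPO9 of the importins, XPO5, and the nucleoporins NUP62, NUP85, NUP188, NUP205 and POM121. Both calls held in every alternative for 6 of the 12, namely RANBP1, RANGAP1, KPNA2, TNPO2, NUP62 and NUP188. Only RANBP2 (1.75% of members) was higher with erlotinib and lower in shEGFR-NLS, against 6.84% of all genes. No member was called in the same direction in both, against 8.23% of all genes. Such a call needs a member among the 4 higher with erlotinib or the 3 lower in shEGFR-NLS. Without the 3 libraries that stood apart AAAS was higher in both, by 0.61 with erlotinib (adjusted p = 0.000105) and 0.24 in shEGFR-NLS (adjusted p = 0.0141). Lower calls with erlotinib (38.6% against 21.2%) and higher calls in shEGFR-NLS (36.8% against 20.4%) were each more common in members than in all genes. These shares alone would raise the number of members called in both, and whether it exceeds what they give was not tested. A further 10 members, among them RAN, KPNB1, XPO1 and XPO6, were lower with erlotinib and not called in shEGFR-NLS. In turn 9, among them NUP43 and NUP210, were higher in shEGFR-NLS and not called with erlotinib. Some calls were gained without the 3 libraries that stood apart. Among them NUP210 was lower with erlotinib (-0.24, adjusted p = 0.0302), and NUTF2, among the 10, was higher in shEGFR-NLS (0.22, adjusted p = 0.0114). Neither comparison called 20 members. Across the 57 members the log2 fold changes of the comparisons had a Pearson r of -0.32 and a Spearman rho of -0.32, and across 15216 genes tested in both these were -0.02 and -0.11. Genes are not independent replicates and these are descriptions.

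**Figure D5:**
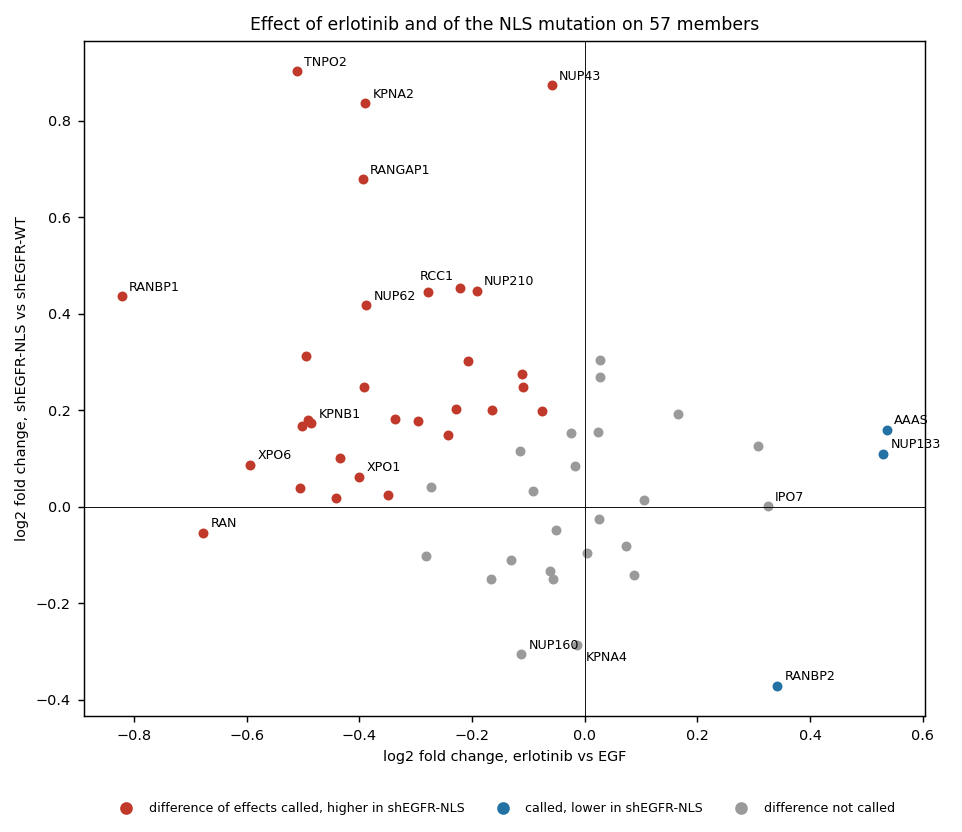
Log2 fold change in erlotinib vs EGF (horizontal) against that in shEGFR-NLS vs shEGFR-WT (vertical) for the 57 tested members, 1 point per gene. Colours give the test of the difference between the effects, with 30 members called higher in shEGFR-NLS (red), 3 called lower (blue) and 24 not called (grey). TNPO2, KPNA2, RANGAP1 and RANBP1 lie at the upper left and RANBP2 at the lower right.

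Of 76 other genes of nuclear transport and its surroundings, listed by function, 66 were tested, of which 6 (9.09%) were higher and 18 (27.3%) lower with erlotinib, against the 22.8% and 21.2% of all genes. With cSNX1.3 2 (3.03%) were higher and none lower, against 3.38% and 2.69%. In shEGFR-NLS 23 (34.8%) were higher and 9 (13.6%) lower, against 20.4% and 21.0%. Of the 20 tested mRNA export genes 3 were higher and 5 lower with erlotinib, and 12 were higher and 2 lower in shEGFR-NLS. DDX39A, an RNA helicase of mRNA export, had log2 fold changes of -1.08 with erlotinib (adjusted p = 5.81e-07) and 0.51 in shEGFR-NLS (adjusted p = 3.24e-05), and the export adaptor ALYREF of -0.74 (adjusted p = 4.05e-05) and 0.39 (adjusted p = 0.000483). NXF1, the main mRNA export receptor, was higher in shEGFR-NLS (0.76, adjusted p = 4.11e-05). Of the 17 genes of the lamina and envelope 2 were higher and 6 lower with erlotinib, and 8 were higher and 1 lower in shEGFR-NLS. Of the lamins, LMNB2 (-0.86 with erlotinib and 0.84 in shEGFR-NLS) and LMNB1 (-0.39 and 0.64) moved in opposite directions, whereas LMNA was lower in both (-0.52 and -0.21).

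KPNA7, a further importin alpha that was not among the members, was called in all 3 comparisons. It was at 7.22, 8.21 and 6.46 CPM in EGF, 10.7 ± 0.596 CPM (SD, n = 3) in cSNX1.3 and 4.28, 4.12 and 3.76 CPM in erlotinib. The groups did not overlap, and the log2 fold changes were 0.55 ± 0.13 with cSNX1.3 (adjusted p = 0.0189), -0.85 ± 0.14 with erlotinib (adjusted p = 0.000166) and -0.59 ± 0.11 in shEGFR-NLS (adjusted p = 0.000355).

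Of the 15 genes of the Sec61 translocon and its HSP70 partners, none was higher and 3 were lower with erlotinib. That share of lower calls was no larger than the 21.2% of all genes, of which 22.8% were higher. With cSNX1.3 1 was higher and none lower, against 3.38% and 2.69% of all genes. In shEGFR-NLS none was higher and 5 (33.3%) were lower, against 20.4% and 21.0%. Differences between these shares were not tested. The Sec61 translocon, the membrane channel through which EGFR is thought to leave the endoplasmic reticulum, was called with erlotinib in its small subunits. SEC61A1, the channel itself, was at 347, 405 and 348 CPM in EGF and 369, 369 and 342 CPM in erlotinib and was called in none of the 3 comparisons. SEC61B (-0.66 ± 0.10, adjusted p = 8.3e-05) and SEC61G (-0.76 ± 0.12, adjusted p = 0.000122) were lower with erlotinib and not called in the other comparisons. SEC61G was at 3158, 3394 and 3092 CPM in EGF and 2085, 2055 and 1564 CPM in erlotinib. SEC61B was at 153, 180 and 149 CPM in EGF and 113, 98.2 and 94.3 CPM in erlotinib, and in both subunits every erlotinib library was below every EGF library. HSPA8, a cytosolic HSP70 chaperone, was at 2030, 2473 and 1993 CPM in EGF and 1686, 1893 and 1793 CPM in erlotinib and was called in none of the 3 comparisons. HSPA5, the HSP70 of the endoplasmic reticulum, was higher with cSNX1.3 (0.64 ± 0.13, adjusted p = 0.00505) and lower in shEGFR-NLS (-0.70 ± 0.08, adjusted p = 3.05e-06), and TRAM1, a translocon partner, was lower in shEGFR-NLS (-0.67 ± 0.09, adjusted p = 2.14e-05).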

How the data were processed

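The 15 RNA libraries of MDA-MB-468 cells were grouped by the sample labels. The authors trimmed reads with TrimGalore, aligned them to GRCh38 with STAR and deposited raw counts of read pairs per gene from featureCounts, made without regard to strand. The annotation release is not stated, and 61399 of 61552 IDs were matched to GENCODE 44.

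The analysis used edgeR 4.0.16 under R 4.3.3 (TMM scaling, filterByExpr by group, robust quasi-likelihood test), separately for the 9 drug and 6 line libraries and over all 15 for the interaction. Benjamini-Hochberg adjustment ran over all genes tested, genes under an adjusted p of 0.05 were called, and errors of fold changes are standard errors. IPO4, with few counts, did not pass the filter and was not tested. The procedure was tested on simulated data.

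Alternatives were DESeq2 1.42.0 as size factors and as the test, no filter, 10 counts in every library, other sets of libraries, the replicate block, each library left out, and a threshold of 0.01. Leaving out the 3 libraries that stood apart was chosen after seeing the data. Values per library are given for the 10 called members with the largest change in erlotinib vs EGF and in shEGFR-NLS vs shEGFR-WT. POM121 has the mean and SD in shEGFR-NLS instead. KPNB1 and RAN have values per library in all groups, and XPO1, SEC61A1, SEC61B, SEC61G and HSPA8 in EGF and erlotinib. Other members are named where they complete a role, and up to 4 called genes per role come from the other lists. The members and lists were chosen with earlier results of these data known.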

Additional observations from a re-analysis of the deposited data

How the results depend on the processing

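No called member changed direction under the alternatives. Among members not called, 11 of 31 in erlotinib vs EGF, 22 of 57 in cSNX1.3 vs EGF, 6 of 33 in shEGFR-NLS vs shEGFR-WT, 6 of 27 in erlotinib vs cSNX1.3 and 7 of 24 in the difference between effects turned sign in 1 or more alternatives, none with a log2 value over 0.11 in size. All alternatives kept the calls of 21 of 26 members in erlotinib vs EGF, 16 of 24 in shEGFR-NLS vs shEGFR-WT, 22 of 30 in erlotinib vs cSNX1.3 and 25 of 33 in the difference between the NLS and erlotinib effects. At an adjusted p under 0.01, 2 members were higher with erlotinib than in EGF and 2 than in cSNX1.3. With the DESeq2 test 1 member was higher with cSNX1.3. The NLS effect was below that of erlotinib in 5 members where 10 counts were required in every library and in 6 without the 3 libraries that stood apart. Leaving out each library in turn gave 2 to 5 members higher and 20 to 24 lower with erlotinib than in EGF, 2 to 9 higher and 22 to 27 lower than in cSNX1.3, 14 to 24 higher and 3 to 4 lower in shEGFR-NLS, 0 with cSNX1.3, and 26 to 32 above and 2 to 5 below in the difference between effects. The cause was not tested.

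Libraries of different groups with the same replicate number had correlations of their deviations from -0.23 to 0.29. Those with different numbers had correlations from -0.38 to 0.43. The labels do not say what a number shares, so whether it pairs the libraries cannot be settled by these values. With the replicate number as a block, 4 members were higher and 21 lower with erlotinib than in EGF, 16 higher and 3 lower in shEGFR-NLS, 5 higher and 23 lower than with cSNX1.3, 0 with cSNX1.3, and 30 above and 3 below in the difference between effects.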
